A study of Mus musculus with 25 samples.

Results

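Among 25 melanomas of a mouse immunotherapy study, 6 tumours kept growing under an antibody against CTLA-4, and these 6 non-responders are described here as 2 states that differ in the RNA of pigment genes. Each tumour was given a pigment score, the mean of log2(CPM + 1) over Mlana, Pmel, Dct, Tyr and Tyrp1, where CPM is counts per M counts of the library. The 3 lowest scores define the pigment-low tumours (non-responders 4, 5 and 6) and the 3 highest define the pigment-high tumours (non-responders 1, 2 and 3). The split was made on measured values of the same libraries, so what separates the 2 sides is given as a description, with no test, and the 5 score genes are left out of the results.

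All 25 tumours were grown from the B2905 line, also called M4, in C57BL/6 mice; they share this 1 line, and the labels state neither the age nor the sex of the mice. Of 40 implanted mice, 30 received anti-CTLA-4 and 5 the isotype-matched antibody IgG2b, each at 10 mg/kg over 2 weeks from a mean tumour size of 75 mm3. Sequenced were 5 IgG2b tumours, called controls, and 20 anti-CTLA-4 tumours: 6 non-responders that grew, 6 stable tumours and 8 responders that shrank, as judged 10 to 11 days after the last dose. There was 1 bulk RNA library per tumour, and tumours were numbered within a group in record order, which pairs none of them. Nothing in the labels says how the tumour pieces were taken, so the spread between libraries may be partly technical.

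Pigment cells make melanin inside melanosomes, organelles that carry a fibrillar scaffold (PMEL), the synthesis enzymes (TYR, TYRP1, DCT) and ion transporters that set the pH at which those enzymes work. The transcription factor MITF drives most of these genes in melanocytes and melanoma, and melanoma cells can lower this programme and take on other states. CTLA-4 is a receptor on T cells that restrains their activation, and an antibody against it is given to release T cells against tumours.

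The pigment score was 6.59, 5.86 and 5.39 in non-responders 4, 5 and 6, and 8.78, 9.79 and 10.5 in non-responders 1, 2 and 3. The tumours just inside and just outside the division were thus non-responder 4 at 6.59 and non-responder 1 at 8.78. Controls scored 10.3 to 11.0, stable tumours 1.55 to 4.42 and responders 0.909 to 5.63. Non-responder 3 fell within the control range, and the 3 pigment-low tumours lay below the controls and above the stable tumours, with responder 6 (5.63) between non-responders 5 and 6. Sox10 and Mitf, markers of the melanocyte lineage outside the score, were present on both sides and lower in the pigment-low tumours. Sox10, a transcription factor of that lineage, was at 253, 283 and 242 CPM in the pigment-low and 309, 311 and 337 CPM in the pigment-high tumours. Mitf was at 117, 99.2 and 105 CPM in the pigment-low and 189, 293 and 471 CPM in the pigment-high tumours.

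**Figure D1:**
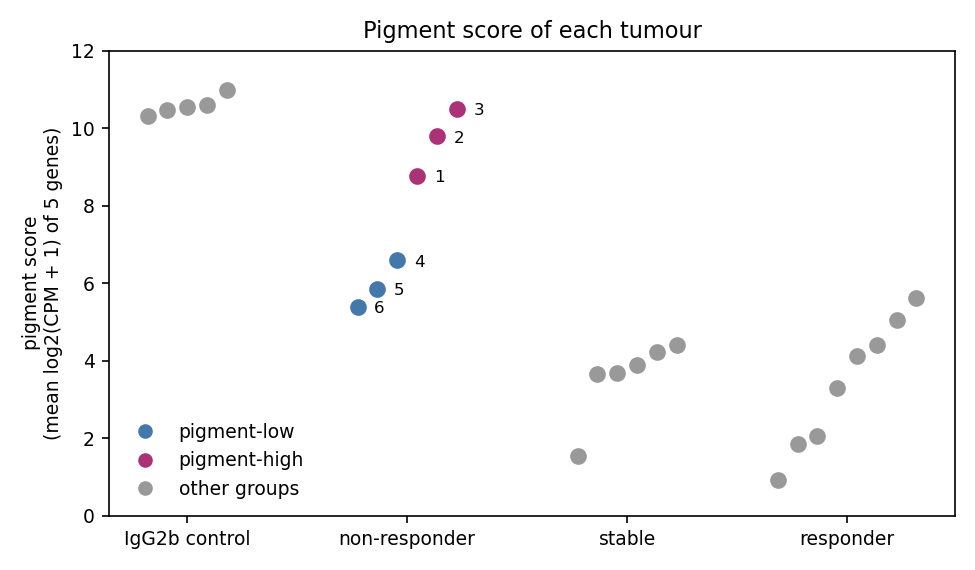
Pigment score (y axis, mean log2(CPM + 1) of 5 genes) of each of the 25 tumours, by label group (x axis); points are tumours and the numbers name the non-responders. The 3 pigment-low non-responders lie between 5.39 and 6.59 and the 3 pigment-high ones between 8.78 and 10.5.

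The libraries held 21.2 to 25.4 M counts on the pigment-low side and 10.9 to 22.2 M on the pigment-high side, against 8.76 to 34.3 M over all 25. Protein-coding genes took 82.9% to 86.2% of counts in pigment-low and 86.1% to 88.4% in pigment-high tumours. Genes of 7SL RNA, the RNA part of the signal recognition particle, were counted together with those of 7SK, another small RNA. Together they took 8.23% to 9.69% in pigment-low and 6.11% to 7.57% in pigment-high tumours, with no overlap. The library names in the labels start with 7, 8 and 9 on the pigment-low side and with 6, 10 and 11 on the pigment-high side, and the labels do not say what these numbers mark. The part of depth or of these shares in the differences below was not tested.

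Levels below are CPM scaled by TMM (a factor that evens out composition), listed for non-responders 4, 5 and 6 and then for non-responders 1, 2 and 3. A fold is taken from the difference in mean log2 CPM with a prior count of 2, which understates the change of low genes. A gene is called apart when the 3 levels of one side all lie above those of the other and the fold is at least 2. Of 18026 genes measured besides the score genes, 466 (2.59%) were apart and higher in pigment-high tumours, and 774 (4.29%) were apart and higher in pigment-low tumours. Without the fold, 2152 genes (11.9%) lay wholly higher in pigment-high tumours and 2234 (12.4%) in pigment-low tumours. At a fold of 4 or more, 130 genes (0.721%) were higher in pigment-high and 61 (0.338%) in pigment-low tumours. Leaving out non-responder 5 gave 728 genes higher in pigment-high tumours, and leaving out non-responder 1 gave 1520 higher in pigment-low tumours. The gene profiles of the 6 tumours were alike, with Spearman correlations across genes of 0.957 to 0.981 within the pigment-low side, 0.965 to 0.973 within the pigment-high side and 0.942 to 0.973 between sides.

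**Figure D2:**
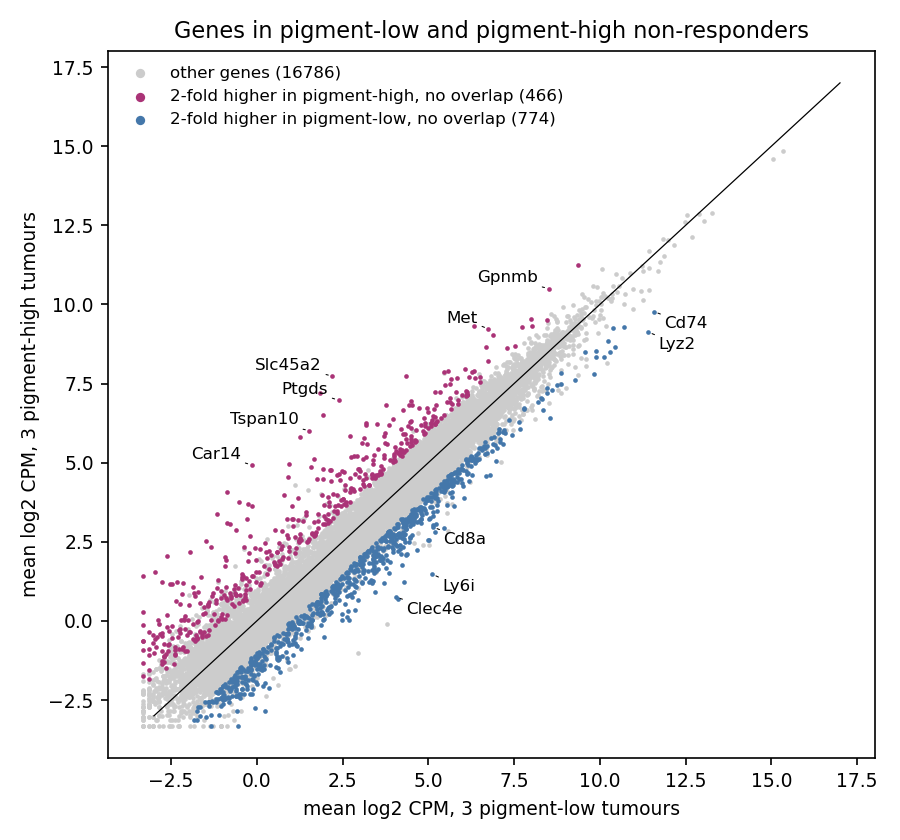
Mean log2 CPM in the 3 pigment-low tumours (x axis) against the 3 pigment-high tumours (y axis), 1 point per gene, with the line of equality. The 466 genes apart and higher in pigment-high tumours and the 774 apart and higher in pigment-low tumours are coloured, and some described below are named.

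Pigment genes outside the score were higher in the pigment-high tumours: of 18 genes of the melanosome and of pigment, 12 were apart in that direction and 0 in the other, against 2.59% and 4.29% of all genes. Since the tumours were chosen on genes of this programme, that count is a description and supports nothing about it. The median difference of the 18 was 1.82 on the log2 scale, against -0.02 over all genes.

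Slc45a2, a melanosomal transporter mutated in oculocutaneous albinism, was at 8.58, 3.16 and 3.33 CPM in the pigment-low and 177, 282 and 194 CPM in the pigment-high tumours. Its 46.4-fold difference was the largest of all 18026 genes, and controls spanned 180 to 435 CPM. Oca2, a melanosomal membrane protein behind another form of albinism, was at 10.7, 10.4 and 6.61 CPM against 35.0, 66.6 and 164 CPM (7.96-fold). Its pigment-high levels spread more widely than those of Slc45a2, with non-responder 3 at the top. Tspan10, a tetraspanin expressed in pigment cells, was at 4.49, 2.91 and 1.64 CPM against 38.5, 71.1 and 97.2 CPM (22.3-fold). Trpm1, a channel first known as melastatin, was at 26.3, 20.9 and 14.7 CPM against 126, 225 and 339 CPM (10.5-fold). For both Tspan10 and Trpm1 the order of the 6 levels was that of the pigment score.

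Gpr143, the receptor of ocular albinism, was at 0.405, 0.25 and 0.153 CPM against 4.38, 8.29 and 4.90 CPM, low throughout. Rab38, a small GTPase that brings enzymes to melanosomes, was at 8.33, 6.41 and 5.05 CPM against 35.0, 57.8 and 91.4 CPM (8.69-fold). Slc24a5, an ion exchanger of melanosomes, was at 22.7, 21.1 and 14.1 CPM against 49.6, 103 and 207 CPM (5.37-fold). These 3 genes showed separate ranges with gaps that differed in width.

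Genes that move melanosomes or that other cells also use mostly differed less, except Rab27a. Rab27a, the GTPase that tethers melanosomes to the motor complex, showed a 5.16-fold difference, while its partners Mlph and Myo5a showed 1.68-fold and 1.73-fold differences. Gpnmb, a melanosome and lysosome glycoprotein that macrophages also make, was at 435, 274 and 400 CPM against 1902, 1128 and 1415 CPM (3.99-fold). Cd63, a membrane protein of many endosomes, differed 1.84-fold, and Atp7a, a copper transporter, 1.26-fold, each with separate ranges. The levels of Slc24a4 and Hps4 overlapped between the sides. Mc1r, the receptor for melanocyte-stimulating hormone, was at 27.5, 28.1 and 31.4 CPM against 41.2, 54.8 and 97.5 CPM (2.08-fold).

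MITF binds E-box sequences, and the letters TCATGTG and TCACGTG are an extended form of them. These were searched on both strands in RefSeq promoter windows of GRCm38.p6, from 250 bases before to 50 after each start. Of 30 named genes apart and higher in pigment-high tumours, 23 had an entry and 4 held a match: Tspan10, Trpm1, Ppargc1a and Plk1. The 250 bases upstream of the start are shown, 5′ to 3′ on the gene's strand and with the match in capitals, for the first 3, which differed 10.5-fold or more between the sides.
Tspan10: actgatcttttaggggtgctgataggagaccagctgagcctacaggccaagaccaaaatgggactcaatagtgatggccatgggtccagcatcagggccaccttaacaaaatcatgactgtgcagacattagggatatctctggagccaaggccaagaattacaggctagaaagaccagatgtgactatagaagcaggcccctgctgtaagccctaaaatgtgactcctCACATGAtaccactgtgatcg
Trpm1: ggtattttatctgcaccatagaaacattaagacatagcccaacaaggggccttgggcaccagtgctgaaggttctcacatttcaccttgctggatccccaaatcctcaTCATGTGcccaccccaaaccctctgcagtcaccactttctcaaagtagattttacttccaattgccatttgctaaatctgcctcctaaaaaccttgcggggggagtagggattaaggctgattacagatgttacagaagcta
Ppargc1a: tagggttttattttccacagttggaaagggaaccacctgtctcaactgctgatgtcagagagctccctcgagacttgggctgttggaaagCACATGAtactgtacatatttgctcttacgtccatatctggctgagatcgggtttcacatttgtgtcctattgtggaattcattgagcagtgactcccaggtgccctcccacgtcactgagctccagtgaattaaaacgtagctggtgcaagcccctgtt
The Tspan10 window is chr11:120442381-120442630 on the plus strand, with its match starting 21 bases upstream. For Trpm1, the window is chr7:64153585-64153834 on the plus strand, with the match starting 142 bases upstream in 1 of its 2 windows. Ppargc1a lies on the minus strand, with a window at chr5:51567726-51567975 and the match starting 160 bases upstream. Such matches were found at 1104 of 12022 genes tested (9.18%), 41 of 323 apart and higher in pigment-high tumours (12.7%) and 52 of 517 apart and higher in pigment-low tumours (10.1%). Over all 32851 windows, 7.40% held a match. A match describes letters and is not a measured binding site.

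Of 12 regulators of melanocyte and neural crest identity, 3 were apart and higher in pigment-high tumours and 0 were apart in the other direction, against 2.59% and 4.29% of all genes. Mitf itself, which controls pigment genes, was at 117, 99.2 and 105 CPM in pigment-low and 189, 293 and 471 CPM in pigment-high tumours (2.78-fold). Met, the receptor for hepatocyte growth factor and a gene under MITF control, was at 135, 103 and 89.0 CPM against 350, 585 and 1045 CPM (5.57-fold). Pax3, an upstream regulator of Mitf, was at 35.7, 42.3 and 25.1 CPM against 59.0, 65.0 and 97.5 CPM (2.14-fold).

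The remaining regulators did not separate by 2-fold. Sox10 lay wholly higher in pigment-high tumours, by 1.23-fold. Kit, a receptor needed by melanocytes, overlapped, at 19.5, 19.5 and 18.2 CPM against 24.8, 30.4 and 13.4 CPM. Tfap2a, Tfap2b, Ednrb, Lef1, Zeb2, Sox5 and Erbb3 overlapped too, with differences from -0.59 (Lef1) to 1.03 (Ednrb) on the log2 scale. Of all 18026 genes, 13640 overlapped. The median of the list was 0.13 on the log2 scale and turned negative without non-responder 6 (-0.07) or non-responder 2 (-0.02).

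In a list of 19 genes linked to dedifferentiated melanoma, 0 were apart in either direction, where the share of all genes (2.59% and 4.29%) would give about 1. Axl, a receptor kinase raised in such states, lay wholly higher in pigment-low tumours at 521, 519 and 592 CPM against 403, 305 and 176 CPM (1.95-fold). The neural crest factor Sox2 did too, by 1.72-fold, while Ccn2, a secreted matrix-associated protein, lay wholly higher in pigment-high tumours (1.68-fold). Ngfr, the neurotrophin receptor of neural crest-like cells, overlapped at 60.5, 74.2 and 46.6 CPM against 29.9, 66.5 and 17.2 CPM. Sox9 was at 2.83, 5.16 and 0.688 CPM against 8.68, 8.94 and 2.02 CPM, also overlapping. The median of these 19 was -0.25, and 0.05 without non-responder 3.

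Outside the pigment list, Car14, a membrane carbonic anhydrase, was at 1.09, 1.17 and 0.382 CPM in pigment-low and 47.5, 36.9 and 15.9 CPM in pigment-high tumours (33.8-fold). Ptgds, a prostaglandin D synthase, was at 6.11, 2.04 and 10.6 CPM against 201, 109 and 90.2 CPM (24.1-fold). Cited1, a transcriptional co-regulator first found in pigmented melanoma cells, was at 4.21, 1.04 and 2.75 CPM against 51.1, 40.1 and 88.3 CPM (23.5-fold). In Car14 and Ptgds the highest level was that of non-responder 1, which had the lowest pigment score of the 3.

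Cfap54, a gene of cilia and flagella, was at 5.83, 7.41 and 1.11 CPM against 38.1, 138 and 146 CPM (24.3-fold). The lens filament gene Bfsp2 was at 0.364, 0.333 and 0.344 CPM against 10.6, 22.6 and 4.56 CPM (23.3-fold). Gdf15, a secreted stress hormone, was at 1.54, 2.12 and 1.68 CPM against 14.9, 20.6 and 39.9 CPM (12.4-fold). The range of these 3 genes in the controls, 49.1 to 174, 9.36 to 44.0 and 17.5 to 66.1 CPM, covered 2 of the 3 pigment-high levels of each.

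Cntfr, a cytokine receptor subunit, differed 19.3-fold, and Slc25a34, a mitochondrial carrier, 15.5-fold. The glutathione transferases Gsta1 and Gsta2 differed 16.4-fold and 14.5-fold. Gsta1, Gsta2 and the predicted gene Gm3776 are near-identical neighbours on chromosome 9, so reads may have been split among them and their single values are uncertain.

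Sterol synthesis genes were higher in pigment-high tumours, with 7 of 13 genes of sterol and fatty acid synthesis apart in that direction and 0 in the other, against 2.59% and 4.29% of all genes. Idi1, which isomerises isoprenoid units, was at 27.4, 31.9 and 33.5 CPM in pigment-low and 86.6, 80.5 and 172 CPM in pigment-high tumours (3.44-fold). Sqle, which makes squalene epoxide, was at 34.8, 39.2 and 37.1 CPM against 118, 94.5 and 132 CPM (3.07-fold). Within both genes the pigment-low tumours lay close together and the highest level was that of non-responder 3. The desaturase gene Scd1 overlapped (1.05-fold), and the fatty acid synthase Fasn differed 1.65-fold with separate ranges.

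Ppargc1a, the coactivator that drives mitochondrial biogenesis and a known MITF target in melanoma, was at 4.41, 4.24 and 1.57 CPM against 26.9, 30.4 and 50.4 CPM (10.8-fold). This coactivator was on the oxidative phosphorylation list and was the 1 gene apart of its 22. With 2.59% of all genes apart in that direction, few would be in a list of this size. The list's median difference was 0.52. Atp5b, a subunit of ATP synthase, showed 1.80-fold, and Ndufa4, a respiratory chain subunit, 1.98-fold, both with separate ranges. Without non-responder 3 the median was 0.26.

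Car9, a carbonic anhydrase induced by low oxygen, was at 4.13, 5.04 and 8.03 CPM against 25.2, 22.5 and 33.4 CPM (4.77-fold). The other 17 of 18 genes of hypoxia and glycolysis overlapped between the sides, as did 13640 of all 18026 genes. Slc2a1, the glucose transporter, was at 37.9, 32.8 and 113 CPM against 125, 46.3 and 121 CPM, high in non-responder 6 and low in non-responder 2. The list's median was 0.80, and 1.25 without non-responder 6.

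Cell cycle genes were modestly higher in all 3 pigment-high tumours. Each of 16 DNA replication genes and each of 15 genes of mitosis and the spindle lay wholly higher in pigment-high tumours, against 11.9% of all genes, while only 2 and 3 of them reached 2-fold. Mki67, a marker of cycling cells, was at 263, 374 and 226 CPM in pigment-low and 439, 566 and 569 CPM in pigment-high tumours (1.85-fold). Mcm5, a subunit of the replicative helicase, was at 45.8, 49.2 and 37.4 CPM against 69.0, 91.5 and 120 CPM (2.08-fold). Bub1, a kinase of the spindle checkpoint, was at 14.2, 16.1 and 14.0 CPM against 27.3, 31.8 and 43.4 CPM (2.27-fold). The median differences of the 2 lists were 0.76 and 0.90, and stayed between 0.63 and 1.04 when each tumour was left out in turn.

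Of 11 genes that report MAPK signalling, Phlda1 (3.63-fold) and Dusp4 (2.21-fold) were apart and higher in pigment-high tumours, against 2.59% of all genes. Dusp6, a feedback phosphatase of ERK, overlapped at 137, 151 and 189 CPM against 213, 175 and 289 CPM. Genes of ER stress, of p53 and of the lysosome held 0 apart of 14, 11 and 14, with medians within 0.05 of 0 on the log2 scale. With 2.59% and 4.29% of all genes apart, few would be in lists of this size.

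**Figure D3:**
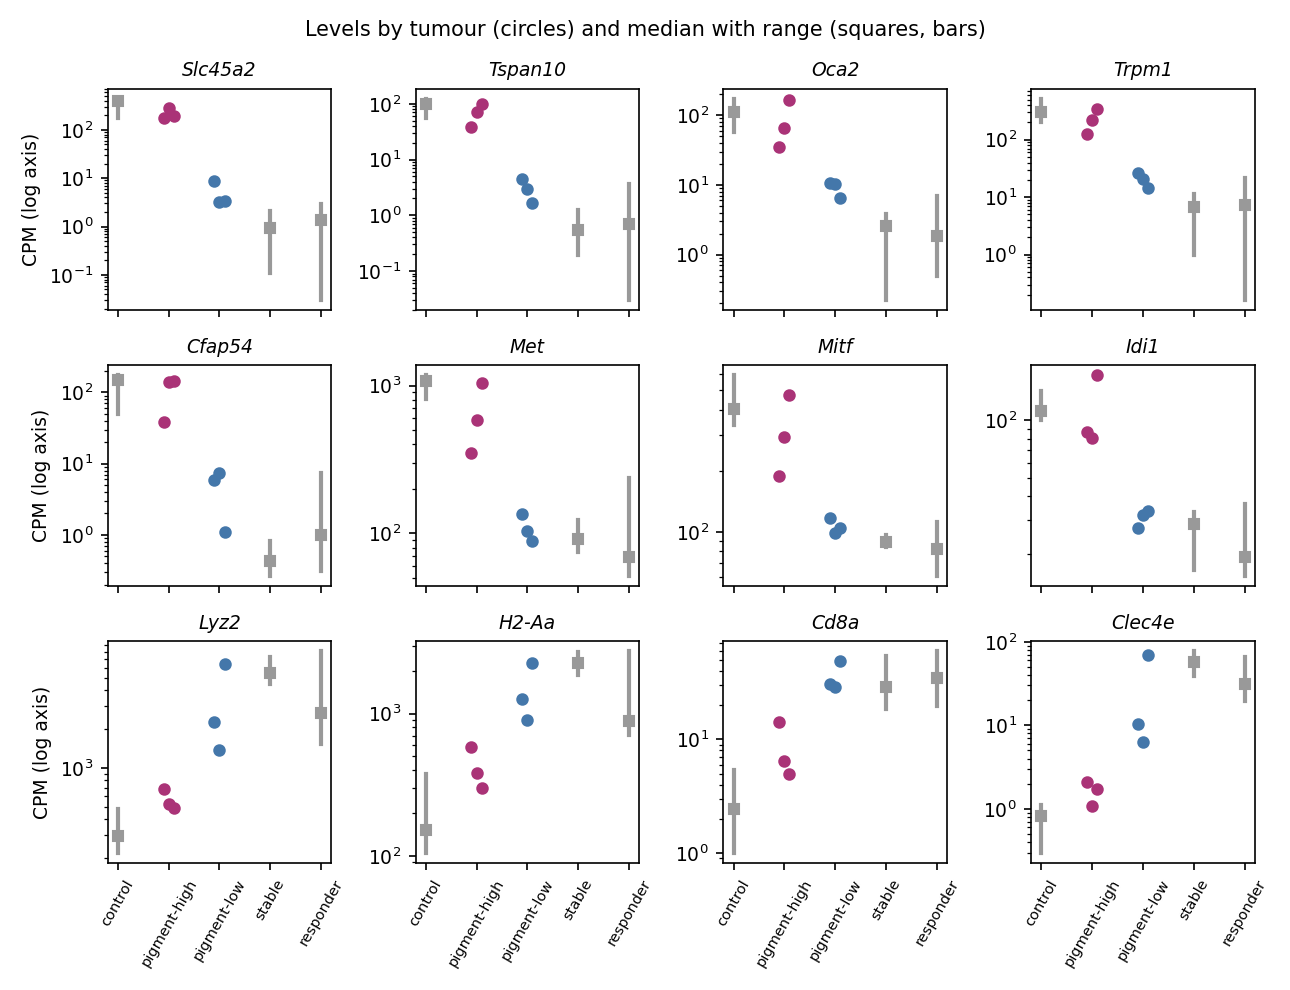
CPM on a log axis (y) for 12 genes in controls, pigment-high and pigment-low non-responders, stable tumours and responders (x); circles are single tumours, and squares with bars are the median and range of the other groups, with values under 0.03 drawn at 0.03. In the 8 genes of the upper 2 rows the pigment-high tumours lie above the pigment-low, stable and responder tumours; for Lyz2, H2-Aa, Cd8a and Clec4e in the lowest row the pigment-low tumours lie above the pigment-high tumours and the controls.

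Genes of T cells, cytotoxic cells and myeloid cells were higher in the pigment-low tumours. All 15 T-cell genes were apart and higher in pigment-low tumours, against 4.29% of all genes. Their summed level was 228, 230 and 371 CPM in pigment-low and 142, 74.9 and 44.4 CPM in pigment-high tumours, compared with 17.4 to 52.7 CPM in controls and 272 to 418 CPM in stable tumours. In these bulk samples, fewer cells of a type and less RNA per cell cannot be told apart. Marker levels of these cells thus moved with the pigment split, and their part in the levels of the other genes was not tested.

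Cd8a, the co-receptor of cytotoxic T cells, was at 31.0, 28.8 and 48.8 CPM in pigment-low and 14.1, 6.44 and 4.98 CPM in pigment-high tumours (4.53-fold). Cd4, the co-receptor of helper T cells, was at 26.0, 27.3 and 30.1 CPM against 15.2, 10.4 and 4.86 CPM (3.01-fold). Cd3e, a chain of the T-cell receptor complex, was at 9.47, 12.1 and 10.1 CPM against 7.22, 3.46 and 1.33 CPM (3.17-fold). In each of these genes non-responder 1 was the highest and non-responder 3 the lowest of the pigment-high tumours.

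Of 12 genes of cytotoxic and natural killer cells, 8 were apart and higher in pigment-low tumours, against 4.29% of all genes. The median difference of the 12 was -1.98 on the log2 CPM scale and -1.23 on log2(RPKM + 1). Prf1, which encodes the pore-forming perforin, was at 6.88, 6.37 and 22.7 CPM against 3.65, 3.15 and 1.12 CPM (4.11-fold). The granzyme Gzmb overlapped, at 21.0, 10.5 and 79.2 CPM against 16.5, 4.41 and 4.34 CPM. Outside the list, Klrc1, a receptor of natural killer and T cells, was at 13.2, 12.9 and 37.7 CPM against 8.28, 2.33 and 1.85 CPM (5.49-fold). Cxcr6, a chemokine receptor of tissue T cells, was at 31.4, 28.0 and 55.1 CPM against 9.90, 6.39 and 5.20 CPM (5.21-fold).

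Regulatory T-cell genes were apart and higher in pigment-low tumours in 3 of 8 cases, against 4.29% of all genes. Ctla4, which encodes the target of the antibody, was at 4.53, 6.24 and 10.4 CPM in pigment-low and 3.98, 3.97 and 1.63 CPM in pigment-high tumours (2.20-fold). Foxp3, the factor that defines these cells, overlapped at 4.41, 8.24 and 3.10 CPM against 4.22, 3.11 and 0.816 CPM. The median of the 8 was -1.09, with -0.60 without non-responder 3 and -0.69 on log2(RPKM + 1).

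Interferon response genes had negative median differences with overlapping levels. All 14 genes of the interferon gamma response and all 16 of the type I response overlapped, although their medians were -1.20 and -0.53. Overlap was common, at 13640 of all 18026 genes, so it says little about these lists. Cxcl9, a chemokine that draws T cells, was at 333, 259 and 563 CPM in pigment-low and 282, 69.0 and 87.6 CPM in pigment-high tumours. Here non-responder 1 reached above non-responder 5, the lowest of the pigment-low tumours. Without non-responder 1 the medians were -1.80 and -0.97, and without non-responder 3 the type I median was -0.22.

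Genes of antigen presentation by MHC class II were mostly apart, and those of class I overlapped at a negative median. Of 10 class II genes 8 were apart and higher in pigment-low tumours, against 4.29% of all genes. All 11 class I genes overlapped with a median of -1.06, where 13640 of all 18026 genes overlapped. H2-Aa, a class II chain, was at 1265, 905 and 2287 CPM in pigment-low and 581, 381 and 298 CPM in pigment-high tumours (3.41-fold). Ciita, the coactivator that switches class II genes on, was at 118, 102 and 173 CPM against 75.5, 40.1 and 27.8 CPM (2.90-fold). H2-K1, a class I chain, was at 1869, 1363 and 3151 CPM against 1487, 671 and 802 CPM, with non-responder 1 above non-responder 5.

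Macrophage genes were apart and higher in pigment-low tumours in 9 of 16 cases, against 4.29% of all genes. Their summed level was 6758, 4329 and 11890 CPM against 2612, 2414 and 1937 CPM. Lyz2, the lysozyme of myeloid cells, was at 2257, 1385 and 6430 CPM against 689, 521 and 487 CPM (4.86-fold). Csf1r, the receptor that macrophages need to survive, was at 397, 328 and 440 CPM against 180, 179 and 118 CPM (2.47-fold). Mrc1, a mannose receptor of tissue macrophages, overlapped at 343, 184 and 182 CPM against 165, 211 and 148 CPM. Arg1, an arginase of suppressive myeloid cells, ranged from 7.37 to 371 CPM within the pigment-low side alone, with non-responder 6 at the top.

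Among protein-coding genes apart that averaged at least 5 CPM, the 12 with the largest folds on the pigment-low side were mainly myeloid or lymphoid, and in all 12 non-responder 6 had the highest level. Clec4e, a receptor of activated myeloid cells, was at 10.4, 6.28 and 69.3 CPM against 2.11, 1.08 and 1.72 CPM (9.93-fold). Ly6i, a surface protein of myeloid cells, was at 19.6, 17.9 and 116 CPM against 9.01, 1.99 and 1.03 CPM (12.4-fold). Rab3c, a GTPase of secretory vesicles in neurons, was more even at 29.4, 26.9 and 40.4 CPM against 6.49, 6.05 and 4.94 CPM (5.40-fold). The others were Clec4d, Fpr2, Saa3, Gzmc, Klrc1, Sirpb1c, Cxcr6, Apol7c and H2-M2, with folds of 5.05 to 10.8.

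Some markers of rarer immune cells were apart and higher on the same side, many at low levels. In that direction 4.29% of all genes were apart. The other markers overlapped, among them Fscn1 (mean 70.7 CPM in pigment-low against 65.4 CPM) and Ighm (52.8 against 50.8 CPM). Of 10 dendritic cell genes 6 were apart and higher in pigment-low tumours, among them Ccr7, the receptor of migrating dendritic cells (5.26, 6.28 and 17.5 CPM against 2.35, 2.98 and 1.59 CPM). Of 8 neutrophil genes 4 were apart, and the median of -1.47 became -0.55 without non-responder 6. The neutrophil gene S100a8 did not exceed 2.87 CPM in any of the 6 tumours. B and plasma cell genes were apart in 4 of 9 cases; Jchain, the joining chain of secreted antibodies, was at 24.8, 23.1 and 23.4 CPM against 13.6, 10.2 and 11.0 CPM (2.05-fold). On log2(RPKM + 1) the medians of these 3 lists were nearer 0, at -0.51 for dendritic cells (from -1.08), -0.77 for neutrophils (from -1.47) and -0.32 for B and plasma cells (from -1.30).

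Few markers of the other tissues that a tumour piece can hold were apart, and with 2.59% and 4.29% of all genes apart few would be in lists of this size. Fibroblast and collagen genes were apart in 0 of 16 cases, muscle genes in 0 of 13, fat genes in 0 of 10, erythroid genes in 0 of 6, and keratinocyte and hair genes in 0 of 14. Endothelial genes were apart in 1 of 12 (Cldn5, 2.13-fold higher in pigment-low) and Schwann cell genes in 1 of 10 (Egr2, 2.33-fold higher in pigment-low). Col1a1, the main fibrillar collagen, was at 3072, 4389 and 1038 CPM against 2676, 3657 and 1355 CPM. Summed muscle genes ranged from 545 to 1659 CPM in pigment-low and from 191 to 1764 CPM in pigment-high tumours, and summed keratinocyte genes from 12.3 to 366 and from 64.6 to 511 CPM. The fibroblast median was -0.38 and the endothelial median -0.33, and both stayed negative when each tumour was left out (-0.61 to -0.11 and -0.57 to -0.12). The keratinocyte median of 0.97 was 0.52 on log2(RPKM + 1) and spanned 0.08 to 2.68 when each tumour was left out, and those of muscle, fat, Schwann cell and erythroid genes changed sign.

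**Figure D4:**
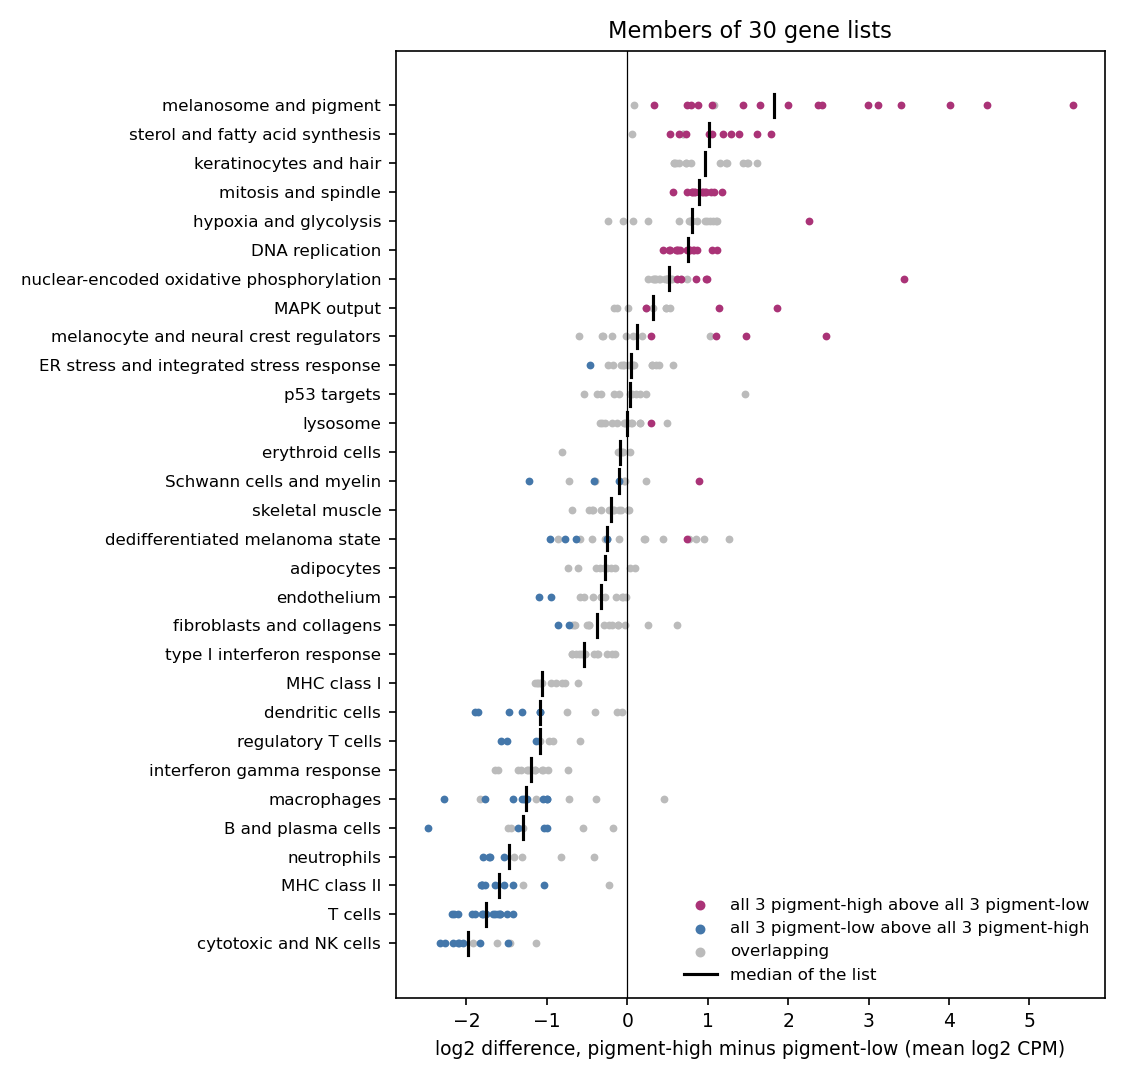
Log2 difference, pigment-high minus pigment-low (x axis), of each measured member of 30 gene lists (y axis, ordered by median); coloured points have separate ranges on the 2 sides, whatever the fold, and bars are medians. Melanosome genes lie at the top with a median of 1.82 and cytotoxic genes at the bottom with -1.98.

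The genes found in the 6 non-responders were looked up in the other 19 tumours, which share no library with them. There the slope of expression on the pigment score was fitted within controls, stable tumours and responders together, with edgeR's quasi-likelihood test adjusted over 18026 genes. At an adjusted p of 0.05 this called 7 genes with a positive slope (0.0388%) and 1 with a negative slope (0.00555%). Unadjusted p-values below 0.05 were found for 1429 genes with a positive slope (7.93%) and 1775 with a negative slope (9.85%). The alternative tool DESeq2 called 258 (1.43%) and 459 genes (2.55%), and limma on RPKM values 124 (0.879%) and 9 (0.0638%). The number of calls thus differed between these fits. The limma fit also used other values and 14108 genes, and the part of the tool alone was not tested.

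Of the 466 genes apart and higher in pigment-high non-responders, 5 rose with the score in the other tumours (1.07%) and 0 fell. Another count, at an unadjusted p below 0.05, gave 92 with a positive slope (19.7%) and 50 with a negative slope (10.7%). Of the 774 genes apart and higher in pigment-low non-responders, 0 were called in either direction by edgeR, and an unadjusted p below 0.05 was found for 46 with a negative slope (5.94%) and 40 with a positive slope (5.17%). DESeq2 called 34 of the 466 with a positive and 9 with a negative slope, and 10 of the 774 with a negative and 5 with a positive slope. In limma, 10 of 380 measured genes of the first set were called positive and 0 negative. Of 630 of the second set 0 were called negative and 6 positive. At an unadjusted p below 0.05, 142 of these 630 (22.5%) had a positive and 27 (4.29%) a negative slope in limma. Over all genes in limma, 17.6% had a positive and 3.39% a negative slope at that p. The share with the matching sign was 61.6% of the 466, where 49.2% of all genes had a positive slope, and 50.5% of the 774, where 50.8% of all genes had a negative slope. Without the responders these shares were 72.5% and 62.9%, against 54.3% and 45.7% of all genes. They were 58.2% and 43.8% without the stable tumours, against 48.9% and 51.1%, and 58.8% and 48.8% without the controls, against 49.4% and 50.6%. With the protein-coding share of counts in the model they were 68.7% and 46.6%, against 53.8% and 46.2%. On the pigment-low side the matching share thus lay above that of all genes without the responders and below it without the stable tumours.

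Tspan10 rose by 1.28 log2 units per unit of score (SE 0.152, n = 19, edgeR adjusted p = 0.00181). Oca2 rose by 0.86 (SE 0.112, edgeR adjusted p = 0.00353) and Slc45a2 by 1.19 (SE 0.18, edgeR adjusted p = 0.0187). The other 2 were Cfap54, with a slope of 0.93 (SE 0.154, edgeR adjusted p = 0.0235), and the predicted gene Gm3776, with 1.64 (SE 0.267, edgeR adjusted p = 0.022). Gm3776 was at 17.4 to 44.2 CPM in controls but at 0 to 0.294 CPM in stable tumours and 0 to 1.32 CPM in responders. Its slope there rests on very few counts and, with the uncertain reads above, it is listed but not relied on. The other called genes were also low in stable tumours and responders. Their medians there were 0.546 and 0.700 CPM for Tspan10, 0.938 and 1.35 CPM for Slc45a2, and 0.435 and 1.005 CPM for Cfap54. For Oca2 they were 2.605 and 1.87 CPM, so these slopes also rest on few counts in those groups. All 5 calls were lost without the responders (adjusted p from 0.159 to 0.619) and without the controls (from 0.0983 to 0.18), while the slopes stayed positive. Leaving out responder 3 ended the calls of Slc45a2 (0.0783), Cfap54 (0.0786) and Gm3776 (0.0839), and leaving out responder 6 or 7 those of Cfap54 and Gm3776. Cfap54 was also lost without responder 4 (0.0573) or 5 (0.0592), without the stable tumours (0.113) and with no filter on low counts (0.0639). Oca2 was lost without the stable tumours (0.0533) and Slc45a2 in limma on RPKM values (0.0588). Without controls 1 and 4, the 2 tumours farthest from the median score, Cfap54 and Gm3776 were lost (both 0.0798), and without responders 3 and 6 all of the 5 but Oca2 were (0.0896 to 0.246). The 3 slope calls outside the 466 genes, named here after their values were seen, were Ptn (0.73), D630003M21Rik (0.54) and Loxl3 (-0.25), and all 3 had overlapping levels in the 6 non-responders.

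Other pigment genes were not called by edgeR in the other tumours. Of the 18 genes of the melanosome and of pigment, 11 had positive and 7 negative slopes. At an unadjusted p below 0.05 in edgeR these were 8 and 2, against 7.93% and 9.85% of all genes. Trpm1 had a slope of 1.03 (edgeR adjusted p = 0.0644) and was called, among other settings, without responder 1, 2 or 8 and by DESeq2 and limma. Ppargc1a had a slope of 0.45 (adjusted p = 0.0938, edgeR), and was called by DESeq2. Met, which differed 5.57-fold between the non-responder states, had a slope of -0.19 (adjusted p = 0.264, edgeR), and Mitf one of 0.08 (adjusted p = 0.339, edgeR). Slc24a5, with a 5.37-fold difference in the non-responders, had a slope of -0.03 (adjusted p = 0.901, edgeR).

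The immune, sterol and cell cycle genes that differed in the non-responders gave 0 called slopes in edgeR in each of their lists. Over all genes, 49.2% of these edgeR slopes were positive and 50.8% negative. At an unadjusted p below 0.05, 7.93% of all genes had a positive and 9.85% a negative slope. Of 15 T-cell genes 9 had positive slopes and 6 negative, with 0 at an unadjusted p below 0.05. All 16 macrophage genes had negative slopes, 5 of them at an unadjusted p below 0.05. Of 13 sterol and fatty acid genes, which were higher in pigment-high non-responders, all 13 had negative slopes and 6 were at an unadjusted p below 0.05. All 18 genes of hypoxia and glycolysis had negative slopes as well, 13 of them at an unadjusted p below 0.05. DNA replication genes had 7 positive and 9 negative slopes, and genes of mitosis and the spindle 13 positive and 2 negative, with 3 and 1 of the positive ones at an unadjusted p below 0.05 and 0 of the negative ones. Protein-coding genes took 23.8% to 87.0% of counts in responders, and with that share in the model 20 genes (0.111%) were called with a positive and 11 (0.061%) with a negative slope over the whole table.

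**Figure D5:**
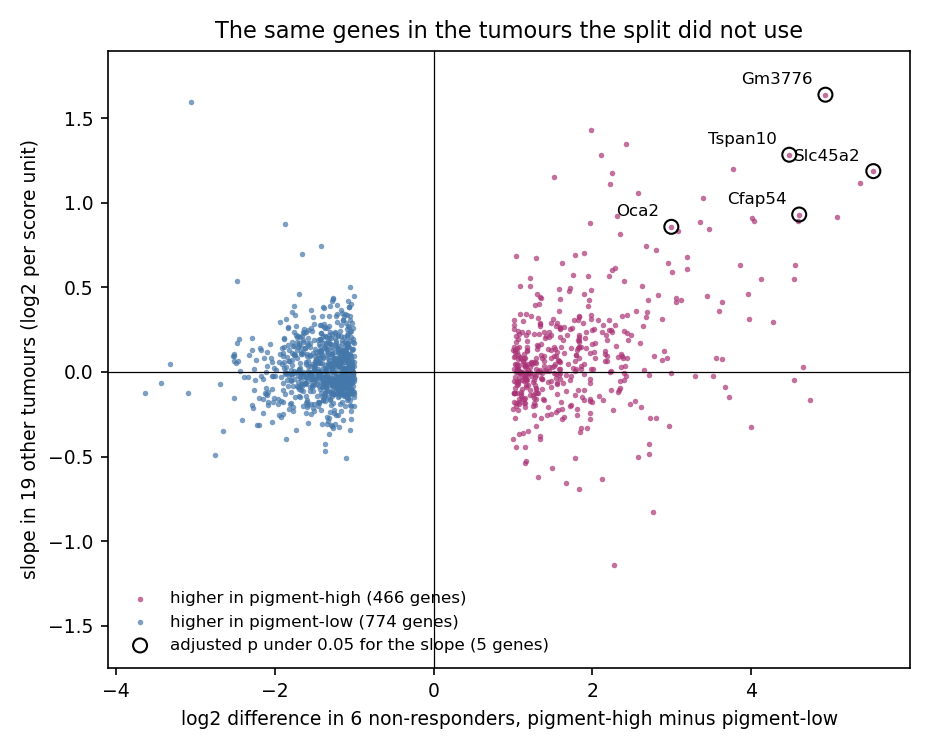
Log2 difference in the 6 non-responders (x axis, pigment-high minus pigment-low) against the slope on the pigment score in the 19 other tumours (y axis, log2 units per score unit) for the 1240 genes apart. The 5 ringed genes were called in the 19 tumours, all on the pigment-high side; on the pigment-low side 391 of 774 slopes were negative.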

How the data were processed

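1 RNA library from each of 25 tumours was sequenced with a stranded total RNA kit, per the labels' protocols, while the labels name the molecule polyA RNA; this was not resolved. Reads were handled with bcl2fastq 2.17, Trimmomatic, STAR 2.5.1 and RSEM 1.2.22 against mm10, per the submitters' processing notes. The authors deposited estimated counts per gene for 55450 genes, of which 5.64% of values were not whole and were rounded, where whole counts had been assumed in planning. The authors also deposited RPKM values for 19522 symbols, 18883 of them matched and used as an alternative on log2(RPKM + 1). Gene names came with the deposited counts, and biotypes and positions from the mouse GENCODE release M21, whose identifiers matched all 55450.

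The filterByExpr rule, by group, kept 18031 genes, and TMM factors were used (edgeR 4.0.16, limma 3.58.1, DESeq2 1.42.0, R 4.3.3). The slope in 19 tumours used robust quasi-likelihood F tests with group as a factor and two-sided Benjamini-Hochberg adjustment. On simulated data of 18031 genes in 19 tumours, 77% of slopes of 0.5 and 95% of slopes of 1 were recovered, with 4.97% of calls false. The slopes were put on 200 genes, with low genes left out, while the real fit made only 7 and 1 calls. Recovery in the real data may thus be lower than in this simulation. Replicates were not duplicates (chi-square per gene at least 37.1 between non-responders). P-values measure the spread between these samples, which may be technical.

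The split, the 30 gene lists and the tests were chosen with earlier results of these data known. Named genes were the 12 highest and 12 lowest folds among protein-coding genes apart that averaged 5 CPM or more in the 6 tumours (predicted genes, receptor segments, ribosomal proteins and pseudogenes left out), fixed marker genes of each list, the 2 largest folds per list, and genes also called in the 19. List genes outside that rule were named after their values were seen. Ly6g did not pass the filter. Alternatives were other scalings, filters, prior counts, folds and tools, and leaving out tumours or groups.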

Additional observations from a re-analysis of the deposited data

Results flagged for a closer look

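The pigment score of stable tumour 3 was 1.55, apart from the other 5 stable tumours, of which the nearest was at 3.66. The gap was 0.736 of the group's whole range. Of 34 groups of values examined in this way this was the 1 that stood out, and chance alone does so in about 1 of 20 groups. Without stable tumour 3, 8 genes had a called positive slope on the score and 9 a negative slope in edgeR, against 7 and 1 with it; Loxl3 was then no longer called (adjusted p = 0.0516).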

How the results depend on the processing

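Counts of genes apart, higher in pigment-high and higher in pigment-low tumours, were 466 and 774. They were 182 and 239 on log2(RPKM + 1), 286 and 546 with a stricter filter, 1063 and 1381 at a fold of 1.5, 130 and 61 at a fold of 4, and 686 and 1604 for the 2 lowest against the 2 highest scores. Leaving out each non-responder in turn gave 527 to 728 and 536 to 1520. The cause of these shifts beyond the fold, the filter and the number of tumours was not tested. Of the 1240 genes apart, 398 of 1010 measured were apart on RPKM, 862 without non-responder 3 and 1007 without non-responder 6. Under any setting tried, 0 were called apart in the opposite direction. Most settings, such as leaving out tumours or changing the fold, could not reverse a gene with separate ranges, so this 0 shows little. A score on TMM-scaled CPM gave the same 3 and 3 tumours.

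Positive and negative slope calls (7 and 1) were 7 and 3 with RLE size factors, 11 and 3 with the stricter filter, 8 and 3 with the TMM score, 20 and 11 after adding the share of protein-coding counts to the model, 258 and 459 with DESeq2, and 124 and 9 with limma. They were 0 and 0 without the responders or without the controls, 3 and 1 without the stable tumours, 4 and 1 without the 2 tumours farthest from the median score (controls 1 and 4), and 1 and 0 without the 2 farthest from their group's mean (responders 3 and 6). This last setting and column totals (502 and 704 genes apart) were chosen after seeing the data. Leaving out each tumour gave 3 to 43 positive calls and 0 to 71 negative calls, both highest without responder 2. Of the 5 genes apart and rising with the score, the count was 10 with that share in the model, 34 with DESeq2, 10 with limma, 3 without the stable tumours or the 2 farthest from the median, 1 without the 2 farthest from their group's mean, 0 without the responders or the controls, and 2 to 17 leaving out each tumour. The matching count on the pigment-low side was 0, with 10 in DESeq2 and 0 to 3 leaving out each tumour. The cause was not tested.

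Over the named genes, 24 differences moved by more than their spread and 1810 did not, and 50 slope tests crossed 0.05 upward and 23 downward. No paired analysis was possible because the labels carry no replicate numbers shared between groups. The depth of 8.76 to 34.3 M counts limits genes under about 1 CPM most, and the folds carry no test because the sides were chosen on the score.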
